A study of Homo sapiens with 6 samples.

Results

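The genes described here encode the proteins of the cytosolic ribosome, the particle that translates mRNA outside the mitochondria. They were chosen by symbol alone, as RPL or RPS followed directly by a number, or RPLP0, RPLP1, RPLP2 and RPSA, and 81 of the 11048 listed genes met the rule. Of these, 42 belong to the large (60S) subunit, 3 to its acidic P stalk and 30 to the small (40S) subunit, and 6 are paralogs whose symbols carry an L after that of a standard subunit gene. A further 13 symbols began with the same letters but were left out, namely 10 ribosomal protein S6 kinases, RPS19BP1 and the pseudogenes RPL23AP82 and RPSAP58. The 81 genes include 75 of the 77 standard subunit genes with such symbols, and RPL21 and RPS10 were not analysed here.

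The samples were MM1.S cells, a human multiple myeloma cell line, kept for 6 h with 3 µM CCF642, with 3 µM CCF642-34 or with the DMSO vehicle. Both compounds inhibit protein disulfide isomerase PDIA1, an enzyme of the endoplasmic reticulum, and CCF642-34 is an analogue of CCF642. Each group held 2 RNA sequencing libraries of the same cell line, and nothing in the labels says that they came from separate cultures, so the p-values measure only the spread between libraries, which may be technical. The study asked whether the 2 compounds could be told apart by gene expression, and here that question is put to the ribosomal protein genes. The libraries held between 20567313 and 28459677 reads. All 9 plasma cell markers looked up were listed, whereas of 12 markers of T cells, monocytes, fibroblasts and earlier B cells only CD3E, at 2.09 to 3.19 CPM (a gene's reads scaled to a common library size), and COL1A1 were listed. COL1A1, a fibroblast collagen, was at 1.09 and 1.5 CPM with DMSO, 8.99 and 10.5 with CCF642, and 2.74 and 3.53 with CCF642-34, and rose with both compounds. Of the plasma cell markers, 2 rose (22.2%, against 29.7% of all genes) and 5 fell (55.6%, against 27.9%) with CCF642-34. With CCF642, 4 rose (44.4%, against 31.8%) and 5 fell (55.6%, against 31.3%). SDC1 (CD138) changed by -1.12 ± 0.04 and -1.67 ± 0.04 on the log2 scale with CCF642-34 and CCF642, and IRF4 by 1.11 ± 0.04 and 0.90 ± 0.04. The part of these shifts in the results was not tested.

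Each ribosome holds its proteins in equal numbers, apart from the P stalk, where RPLP1 and RPLP2 are bound as pairs to RPLP0. Most of their mRNAs begin with a terminal oligopyrimidine (TOP) tract, a C at the first base followed by a run of C and T, through which the kinase mTOR and the RNA-binding protein LARP1 control their translation. Myeloma cells secrete immunoglobulin in bulk and make heavy use of their ribosomes, so the supply of ribosomal proteins is a well studied matter in these cells.

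The starts of genes among the 5 largest called rises or falls of a comparison are shown because the TOP tract is the sequence feature that these mRNAs are known to share. Each window, from RefSeq on GRCh38.p14 and in the sense of the gene, holds 10 bases before the annotated start and 20 from it. Capitals mark the run of C and T that opens with a C at the annotated start, where there is one. The first 8 windows hold a C followed by at least 4 pyrimidines.
RPL22L1 (chr3:170870176-170870205, minus strand): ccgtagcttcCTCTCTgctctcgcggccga
RPL28 (chr19:55385922-55385951, plus strand): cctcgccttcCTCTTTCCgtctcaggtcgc
RPS9 (chr19:54200848-54200877, plus strand): gcttccgcgcCTCTTTCTCagtgaccgggt
RPS19 (chr19:41860245-41860274, plus strand): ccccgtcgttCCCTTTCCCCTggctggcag
RPS21 (chr20:62387093-62387122, plus strand): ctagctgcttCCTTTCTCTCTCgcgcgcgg
RPL34 (chr4:108620566-108620595, plus strand): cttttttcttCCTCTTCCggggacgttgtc
RPL22 (chr1:6199576-6199605, minus strand): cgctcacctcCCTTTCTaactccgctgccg
RPL36A (chrX:101391001-101391030, plus strand): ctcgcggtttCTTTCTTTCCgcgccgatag
The other windows do not match at the annotated start.
RPS28 (chr19:8321486-8321515, plus strand): gaagcacgtgactcctctccgccagaccgc
RPS15 (chr19:1438386-1438415, plus strand): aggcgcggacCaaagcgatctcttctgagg
RPL9 (chr4:39458903-39458932, minus strand): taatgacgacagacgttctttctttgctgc
RPL36AL (chr14:49620607-49620636, minus strand): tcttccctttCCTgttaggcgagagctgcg
RPL6 (chr12:112411423-112411452, minus strand): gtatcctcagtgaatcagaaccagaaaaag
RPL7L1 (chr6:42879606-42879635, plus strand): gtgcggcgccgtagctaggagcggacgcca
RPL26L1 (chr5:172958719-172958748, plus strand): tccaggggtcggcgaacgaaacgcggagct

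Of the 81 genes, 65 were matched in the promoter table, and 41 of the 65 (63.1%) had a C followed by at least 4 pyrimidines at the annotated start, read on the strand of the gene. The same held for 4.04% of all 27305 promoters in the table, for 5.46% of those of listed genes and for 7.58% of those of 66 mitochondrial ribosomal protein genes. When the start was allowed to lie up to 5 bases either side, 76.9% of the ribosomal protein genes and 21.1% of all promoters matched. The longest tract, of 19 bases, was that of RPL39, which lies at the exit tunnel. A missing match says only that these letters do not stand at this annotated start.

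With CCF642-34, 67 of the 81 genes rose and 3 fell at an adjusted p under 0.05 (limma, Benjamini-Hochberg over all 11048 genes), and 11 did not pass the test. Over all genes, 29.7% rose and 27.9% fell. The median log2 fold change, computed on TMM-scaled CPM (libraries brought to a common scale by the trimmed mean of M-values) with a pseudocount of 1, was 0.21 over the ribosomal protein genes and 0.0062 over all genes. The rises were small and alike: among the 68 genes with a mean of at least 100 CPM, all of them standard subunits, 80% of the log2 fold changes lay between 0.11 and 0.33, and 63 rose. Only RPL6 fell among these 68. The RNA is that of whole cultures, in which a change in the share of cells of a state and a change in RNA per cell cannot be told apart.

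The same libraries were set side by side without any further scaling. Both CCF642-34 libraries lay above both DMSO libraries in deposited CPM for 58 of the 81 genes and below them for 9, against 31.5% above and 47.8% below over all genes. Scaled by library size alone, the median of all genes lay at -0.078 and that of the ribosomal protein genes at 0.12, with 51 higher and 6 lower. The median gap to all genes was thus 0.21 with TMM scaling and 0.20 with library size alone. With cyclic loess scaling, which also evens out changes that follow the level of a gene, the gap was 0.11, and 49 genes were higher and 5 lower.

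**Figure D1:**
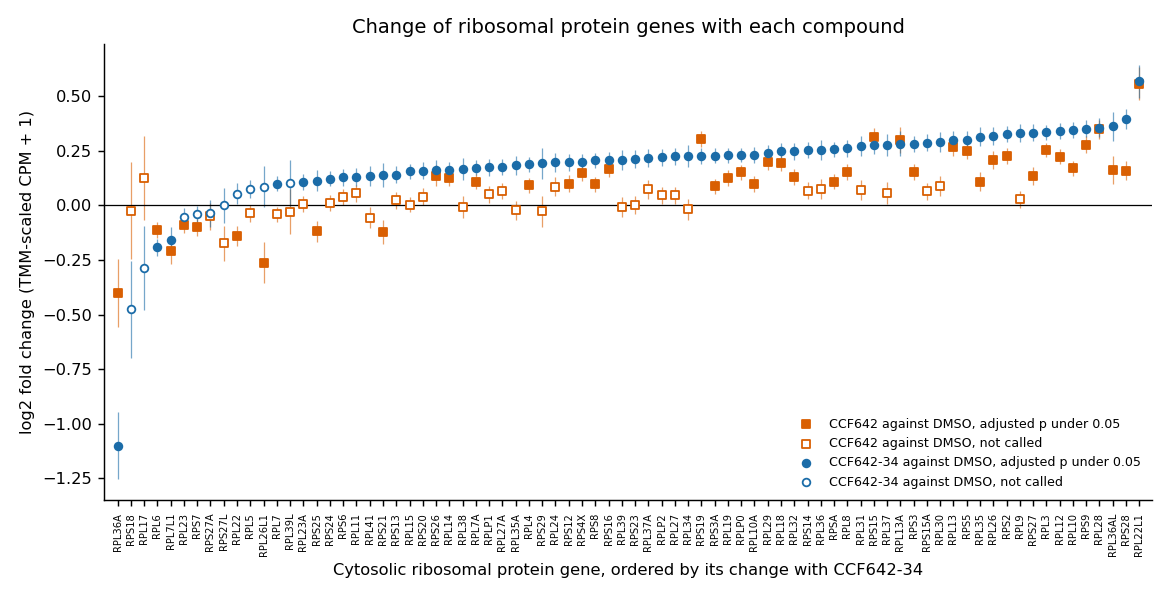
Log2 fold change (TMM-scaled CPM + 1) of 78 of the 81 ribosomal protein genes against DMSO, with CCF642-34 (circles) and CCF642 (squares), ordered by the change with CCF642-34. Bars are standard errors of the limma fit and filled symbols have an adjusted p under 0.05. The circles lie above the squares for most genes, RPL36A stands apart at the left and RPL22L1 at the right.

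Together the 81 genes took 5.63% and 5.75% of the reads with DMSO, 5.67% and 5.56% with CCF642, and 6.32% and 6.17% with CCF642-34. Both CCF642-34 libraries thus lay above the other 4, and the DMSO and CCF642 libraries overlapped. The share was 1.10 times that of DMSO with CCF642-34 and 0.987 times with CCF642. After TMM scaling the summed CPM were 54026 ± 855 with DMSO, 58501 ± 524 with CCF642 and 63109 ± 1252 with CCF642-34 (SD, n = 2 each), a ratio to DMSO of 1.08 and 1.17. The exact two-sided permutation p was 0.333 for CCF642-34 against either group, which is the smallest that 2 libraries against 2 allow, and 0.667 for the share with CCF642 against DMSO.

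The balance of the subunits stayed within a narrow range. For this ratio the P stalk genes were summed with the 60S genes. Their summed CPM was between 1.57 and 1.59 times that of the 40S genes in all 6 libraries. The counts that follow are of the 60S genes without the stalk. With CCF642-34, 36 of 42 genes of the 60S subunit rose and 2 fell, with a median log2 fold change of 0.23, and 26 of 30 genes of the 40S subunit rose and 0 fell, with a median of 0.21. With CCF642, 18 of the 60S genes rose and 4 fell, and 16 of the 40S genes rose and 3 fell.

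**Figure D2:**
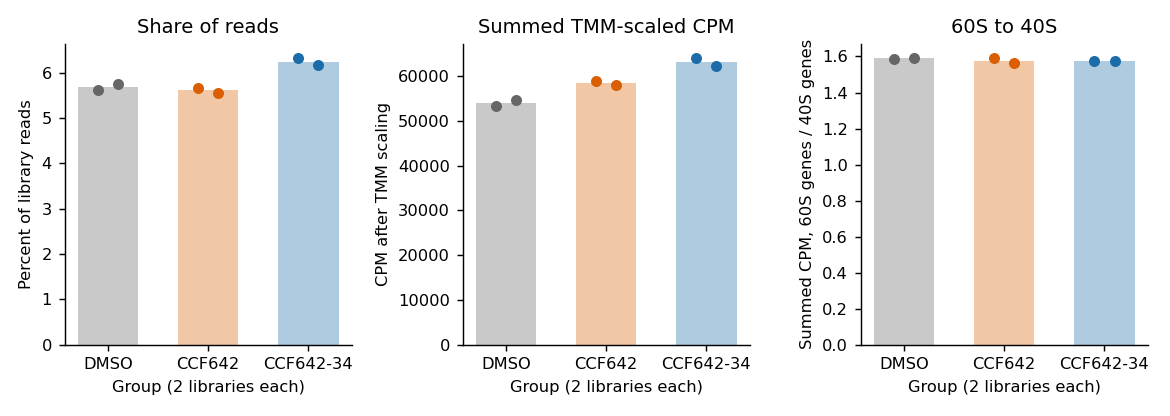
Share of library reads taken by the 81 genes (left, percent), their summed CPM after TMM scaling (middle) and the ratio of summed CPM of 60S to 40S genes (right), for DMSO, CCF642 and CCF642-34. In the ratio the P stalk genes are counted with the 60S genes. Points are libraries and bars their means (2 libraries a group). The CCF642-34 libraries are highest in the first 2 panels, CCF642 is at the level of DMSO in the left panel and above it in the middle, and the ratio lies between 1.57 and 1.59 throughout.

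In the 60S subunit, RPL3, a core protein beside the peptidyl transferase centre, was at 1813 and 1842 CPM with DMSO, 1980 and 1992 with CCF642, and 2175 and 2157 with CCF642-34. The 3 groups did not overlap, and DMSO was lowest. The log2 fold change was 0.33 ± 0.03 (SE) with CCF642-34 (adjusted p = 5.3e-12) and 0.25 ± 0.03 with CCF642 (adjusted p = 6.5e-09).

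RPL28, a 60S protein with no bacterial counterpart, showed the largest rise among standard 60S genes with both compounds. It was at 894 and 932 CPM with DMSO, 993 and 1130 with CCF642, and 1143 and 1055 with CCF642-34. Both treated groups lay above DMSO and overlapped each other. The log2 fold changes were 0.36 ± 0.04 with CCF642-34 and 0.35 ± 0.04 with CCF642, and the difference between the compounds was 0.0068, with a 95% interval from -0.079 to 0.093. Leaving out CCF642 replicate 1 brought that difference to -0.091 and leaving out CCF642 replicate 2 to 0.10, both past the threshold, and it was -0.055 when CCF642-34 replicate 1 was left out.

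RPL9 parted the compounds most among well expressed genes. This 60S protein, which lies near the base of the stalk, was at 489 and 482 CPM with DMSO, 470 and 433 with CCF642, and 572 and 575 with CCF642-34. Only the CCF642-34 libraries stood above DMSO. It rose by 0.33 ± 0.04 with CCF642-34 (adjusted p = 6.6e-10), did not pass the test with CCF642 (adjusted p = 0.56), and the difference between the compounds was 0.30 ± 0.04 (adjusted p = 3.1e-08). RPL34 showed a similar pattern, with 310 and 258 CPM with CCF642 and 354 and 337 with CCF642-34, a difference of 0.25 ± 0.05.

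RPL5 and RPL11 bind the 5S rRNA together and, when not in a ribosome, the p53 ligase MDM2. RPL5 was at 417 and 412 CPM with DMSO, 374 and 364 with CCF642, and 407 and 414 with CCF642-34, and it passed the test with neither compound. RPL11 was at 755 and 785 CPM with DMSO, 761 and 700 with CCF642, and 814 and 770 with CCF642-34, and rose by 0.13 ± 0.04 with CCF642-34. Their DMSO libraries overlapped those of CCF642-34 in deposited CPM. Between the compounds, RPL5 was higher with CCF642-34 by 0.11 ± 0.04 (adjusted p = 0.024), a call lost without DMSO replicate 1, DMSO replicate 2, CCF642 replicate 2 or either CCF642-34 library, and its sign turned (-0.015) with a correction for length and GC content.

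RPL6 was the well expressed exception. This 60S protein was at 548 and 537 CPM with DMSO, 469 and 445 with CCF642, and 442 and 450 with CCF642-34. All 4 treated libraries lay below both DMSO libraries. It fell by 0.19 ± 0.04 on the log2 scale with CCF642-34 (adjusted p = 3.5e-05) and by 0.11 ± 0.04 with CCF642 (adjusted p = 0.0103), the latter not called without DMSO replicate 1 or CCF642 replicate 2. Relative to the other ribosomal protein genes, as its part of their summed CPM, RPL6 dropped by 0.42 on the log2 scale with CCF642-34, more than any other gene of at least 100 CPM.

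RPL10, which joins last and closes the 60S subunit, rose by 0.34 ± 0.04 with CCF642-34. RPL8, which lies at the catalytic centre, rose by 0.26 ± 0.04. RPL41, the smallest ribosomal protein, rose by 0.13 ± 0.05 and RPL39 by 0.21 ± 0.04.

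The P stalk recruits the GTPases of translation. RPLP0, its base, was at 2038 and 2059 CPM with DMSO, 2081 and 2065 with CCF642, and 2244 and 2276 with CCF642-34, the highest CPM of the 81 genes. The CCF642-34 libraries stood apart from the rest. All 3 stalk genes rose with CCF642-34, RPLP0 by 0.23 ± 0.03, RPLP1 by 0.17 ± 0.04 and RPLP2 by 0.22 ± 0.04. With CCF642 only RPLP0 passed the test, at 0.15 ± 0.03 (adjusted p = 0.00011), and it no longer did when scaled by library size alone (0.017) or by cyclic loess (0.033).

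In the 40S subunit, RPS28, which lies at the mRNA exit, was at 784 and 830 CPM with DMSO, 780 and 864 with CCF642, and 1058 and 941 with CCF642-34. The CCF642-34 libraries were highest, and those of CCF642 and DMSO overlapped. The rise with CCF642-34, 0.40 ± 0.04 (adjusted p = 9.3e-11), was the largest among the standard subunits, and the difference from CCF642 was 0.24 ± 0.04 (adjusted p = 3.1e-05). With CCF642 the value was 0.16 ± 0.04 (adjusted p = 0.0016), a call lost with library size alone, with cyclic loess, without DMSO replicate 1 or without CCF642 replicate 2.

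RPS15, which reaches into the decoding site, and RPS19, which is mutated in Diamond-Blackfan anaemia, were the 40S genes that rose most with CCF642. RPS15 was at 1021 and 1038 CPM with DMSO, 1098 and 1240 with CCF642, and 1180 and 1162 with CCF642-34. RPS19 was at 827 and 859 CPM with DMSO, 940 and 958 with CCF642, and 940 and 914 with CCF642-34. In both genes all 4 treated libraries lay above DMSO. The log2 fold changes of RPS15 were 0.31 ± 0.04 with CCF642 and 0.28 ± 0.04 with CCF642-34, and those of RPS19 were 0.31 ± 0.04 and 0.23 ± 0.04. The difference between the compounds passed the test for neither, with 95% intervals from -0.12 to 0.04 for RPS15 and from -0.15 to -0.0057 for RPS19.

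RPS21 and RPS25 were the 2 genes called in opposite directions by the compounds. RPS25, which some viral mRNAs need for internal initiation, was at 490 and 512 CPM with DMSO, 462 and 382 with CCF642, and 523 and 496 with CCF642-34. RPS21 was at 269 and 281 CPM with DMSO, 239 and 221 with CCF642, and 317 and 255 with CCF642-34. In both genes the CCF642 libraries were lowest, and the CCF642-34 libraries overlapped those of DMSO. RPS21 was at 0.14 ± 0.06 with CCF642-34 (adjusted p = 0.029) and -0.12 ± 0.06 with CCF642 (adjusted p = 0.0496), and RPS25 at 0.11 ± 0.05 (adjusted p = 0.042) and -0.12 ± 0.05 (adjusted p = 0.028). The call of RPS21 with CCF642-34 turned to -0.022 without CCF642-34 replicate 1, and that of RPS25 with CCF642 to 0.013 without CCF642 replicate 2. Of 16 alternatives, the call of RPS21 was lost in 5 with either compound, and that of RPS25 in 8 with CCF642-34 and in 5 with CCF642. Between the compounds RPS21 differed by 0.26 ± 0.06 (adjusted p = 0.0002), a call also lost without CCF642-34 replicate 1.

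RPS2, RPS3 and RPS20 are ubiquitylated when ribosomes stall or collide, and their log2 fold changes with CCF642-34 were 0.33 ± 0.04, 0.28 ± 0.04 and 0.16 ± 0.04. RPS6, the substrate of the S6 kinases, was at 785 and 831 CPM with DMSO, 740 and 773 with CCF642, and 827 and 833 with CCF642-34, a log2 fold change of 0.13 ± 0.04 with CCF642-34. RPSA, once described as a laminin receptor, rose by 0.26 ± 0.03 and RPS9 by 0.35 ± 0.04. RPS27A, made as a fusion with ubiquitin, passed the test with neither compound and lay between 61.7 and 74.4 CPM. The calls of RPL7, RPL11, RPL41, RPS6, RPS20, RPS21 and RPS25 with CCF642-34 were lost with library size alone and with cyclic loess, and that of RPLP1 with cyclic loess only. The calls of RPL7, RPL11, RPL41 and RPS6 were also lost without DMSO replicate 1, those of RPL7, RPL11 and RPL41 without CCF642-34 replicate 1, and that of RPL7 without DMSO replicate 2 or CCF642-34 replicate 2.

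With CCF642, 37 of the 81 genes rose and 9 fell, and the median log2 fold change was 0.087 (-0.0068 over all genes). Over all genes, 31.8% rose and 31.3% fell. The direction depended on the scaling. With library size alone 12 genes rose and 30 fell (22.9% and 42.9% over all genes). With cyclic loess 15 rose and 18 fell (31.6% and 31.3% over all genes). With a correction for length and GC content 50 rose and 4 fell (32.9% and 31.1% over all genes). The medians under these 3 scalings were -0.047, -0.022 and 0.11. With library size alone the median of all genes was -0.13, so the ribosomal protein genes stood 0.084 above it, and with cyclic loess their distance from it was -0.021. In deposited CPM, both CCF642 libraries lay above both DMSO libraries for 15 genes and below them for 35, against 29.2% above and 52.5% below over all genes. Without DMSO replicate 1 the number that rose was 22, and without DMSO replicate 2 or CCF642 replicate 2 the number that fell was 2 or 3.

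**Figure D3:**
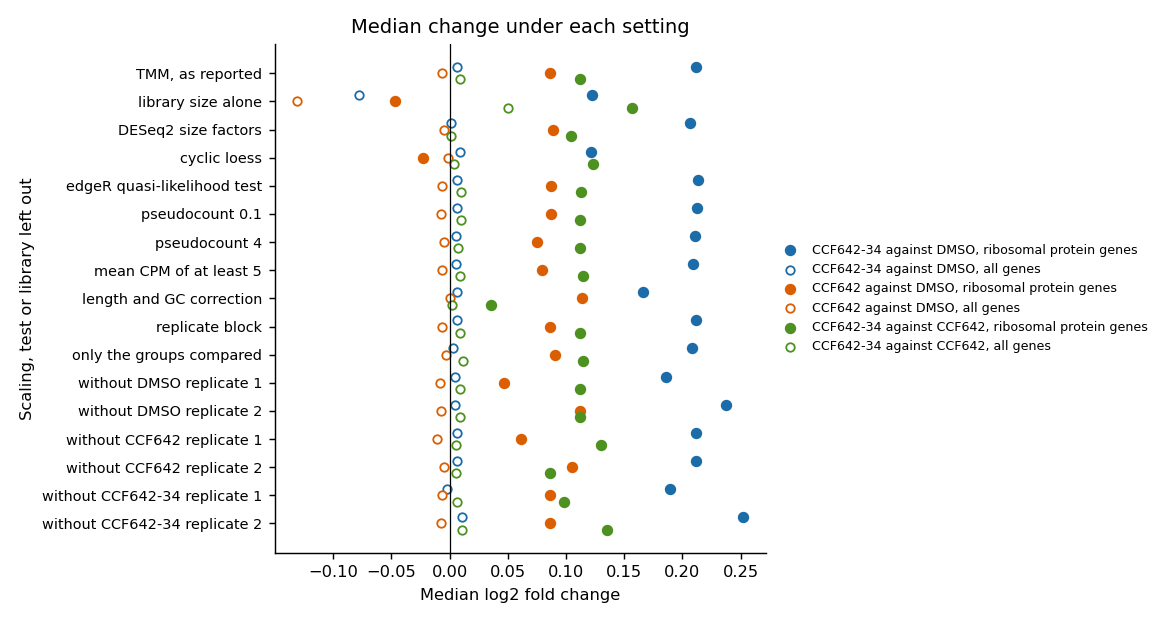
Median log2 fold change over the ribosomal protein genes (filled) and over all genes (open) in the 3 comparisons, for the reported fit and each other scaling, test or omitted library. The CCF642-34 medians against DMSO lie between 0.12 and 0.25 and those between the compounds between 0.036 and 0.16, and the CCF642 medians cross 0 with library size alone and with cyclic loess.

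Both comparisons share the DMSO libraries, and their calls are therefore given only side by side. Of the 81 genes, 37 rose with both compounds, 28 rose with CCF642-34 and did not pass the test with CCF642, 2 were called in opposite directions, 3 (RPL36A, RPL6 and RPL7L1) fell with both, 4 (RPL22, RPL23, RPL26L1 and RPS7) fell with CCF642 only, and 7 passed neither test.

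The compounds were then compared directly at their common dose and time. With CCF642-34, 49 genes were higher and 1 was lower than with CCF642, and the median difference was 0.11 on the log2 scale (0.0091 over all genes). Over all genes, 15.9% were higher and 17.5% lower. In deposited CPM both CCF642-34 libraries lay above both CCF642 libraries for 69 genes and below them for 4, against 39.7% and 25.4% over all genes. Of the 31 genes that did not pass the test, the 22 with at least 100 CPM had 95% intervals that lay within -0.16 to 0.18, and the 9 with fewer had intervals within -0.90 to 0.34.

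The number of calls between the compounds moved with every library left out, with the scaling, with the groups fitted and with 1 correction. With library size alone 61 genes were higher and 1 lower (21.8% and 13.5% over all genes). With cyclic loess 51 were higher (15.7% over all genes), and with separate fits per pair of groups 44 were (13.8%). The number higher was smaller than in the reported fit without either DMSO library, CCF642 replicate 2 or either CCF642-34 library. Without CCF642-34 replicate 1, 21 genes were higher and 1 lower, and without CCF642 replicate 1 or CCF642 replicate 2 the number lower was 5 or 2. With the correction for length and GC content 22 genes were higher and 8 lower, and the median was 0.036. The log2 difference between the compounds was set against the log2 length of the longest transcript. Across all 11018 genes with a gene model, the Pearson correlation was -0.21. Across the 81 ribosomal protein genes it was -0.0062, and these genes are not independent replicates.

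Among the ribosomal protein genes the change against DMSO moved with GC content. Pearson's r over the 81 genes was 0.40 with CCF642 and 0.31 with CCF642-34, against 0.011 and 0.021 over all genes. Of the 27 genes with the highest GC content, between 50.9% and 63.7%, 20 rose with CCF642, and of the 27 with the lowest, between 37.4% and 44.9%, 7 did. With CCF642-34 these numbers were 26 and 20. Between the compounds r with GC content was 0.041. The change against DMSO also moved with the level of a gene. Pearson's r with the mean log2 CPM was 0.32 with CCF642, 0.57 with CCF642-34 and 0.48 between the compounds. The rank correlations (Spearman) were 0.45, 0.35 and -0.12. Across all genes Pearson's r with level was 0.14, 0.14 and -0.050. Genes with a TOP match at the annotated start had a median of 0.22 with CCF642-34 and those without one had 0.20, and with CCF642 the medians were 0.076 and 0.095. With the start allowed to lie up to 5 bases either side, 50 genes matched and 15 did not. Their medians were then 0.22 and 0.16 with CCF642-34, and 0.091 and 0.028 with CCF642. Whether genes with and without a match differ was not tested.

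The spread within groups was measured on the same scale. Among genes of at least 100 CPM, the median absolute difference between the libraries of a group was 0.044 with DMSO, 0.079 with CCF642 and 0.063 with CCF642-34 for the 68 ribosomal protein genes, and 0.034, 0.056 and 0.046 for the 2532 genes of that level. The median of the ribosomal protein genes in replicate 2 differed from that in replicate 1 by 0.039, -0.028 and -0.047 in these groups. These differences are shared by the members of a library, so the calls of the 81 genes are not independent of one another.

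The levels of the standard genes were uneven in these files, although their proteins are needed in equal numbers. Per kilobase of exon (union of the exons of the GENCODE model), the median over 75 standard genes was 222 CPM with DMSO, and 64 lay within 4-fold of it. Among the highest were RPS12, a 40S protein, at 1086 CPM per kilobase and RPL8 at 714, and with CCF642-34 RPS12 rose by 0.20 ± 0.04. Among the lowest were RPS18 at 0.952, RPL17 at 1.08 and RPL36A at 2.35 CPM per kilobase. The order within each end depends on the length used, and RPS18, RPL17 and RPL36A lay under 0.1 times the median with the union of exons, with the longest transcript and with the principal transcripts, the last chosen after seeing the data.

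**Figure D4:**
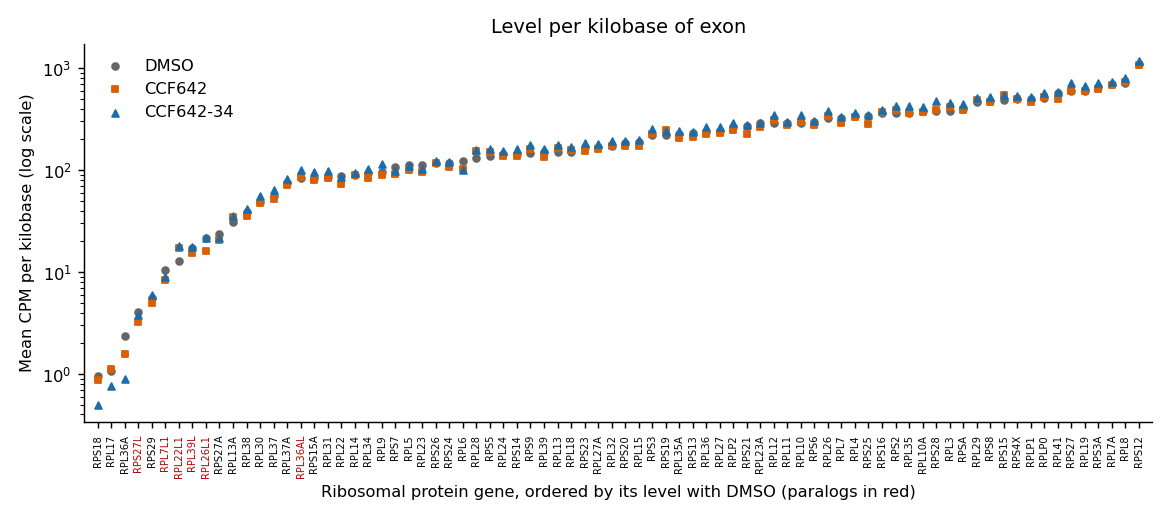
Mean CPM per kilobase of exon (log scale) of 78 of the 81 ribosomal protein genes with DMSO, CCF642 and CCF642-34, ordered by the level with DMSO. Symbols in red name paralogs. Most standard genes lie within 4-fold of their median of 222 CPM per kilobase, and RPS18, RPL17 and RPL36A lie under 3.

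Low values of that kind rest on few reads. RPS18, a protein of the 40S head, was counted with 24 to 48 reads per library and RPL17, at the exit tunnel, with 45 to 63 reads, and neither passed the test in any comparison. Ribosomal protein mRNAs have many processed pseudogenes and the counting settings are not given in the sources used here, so how reads shared with such copies were assigned cannot be told, and levels of these genes are uncertain. RPL17 and RPL36A also each overlap an annotated read-through gene on the same strand, RPL17-C18orf32 and RPL36A-HNRNPH2. Without the 5 standard genes under 0.1 times the median by the union of exons, 66 of 76 genes rose with CCF642-34 and 2 fell.

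RPL36A, a 60S protein near the exit site of the tRNA, showed the largest change of all. It was at 8.44 and 10.2 CPM with DMSO (194 and 218 reads), 6.32 and 6.02 with CCF642 (130 and 136 reads), and 3.09 and 4.03 with CCF642-34 (88 and 112 reads). The 3 groups did not overlap. The log2 fold change was -1.10 ± 0.15 with CCF642-34 (adjusted p = 3.2e-08), -0.40 ± 0.15 with CCF642 (adjusted p = 0.021) and -0.70 ± 0.15 between the compounds (adjusted p = 0.00034), and it was the only gene lower with CCF642-34 than with CCF642. The call with CCF642 was lost with cyclic loess, without DMSO replicate 2 and without CCF642 replicate 2. Its paralog RPL36AL, encoded elsewhere, was at 62.2 and 61.9 CPM with DMSO, 69.0 and 58.2 with CCF642, and 76.4 and 74.0 with CCF642-34, and rose by 0.36 ± 0.07 with CCF642-34 (adjusted p = 5.9e-06). In these files the paralog thus had 7.37 and 6.07 times the CPM of RPL36A with DMSO and 24.7 and 18.4 times with CCF642-34. Their sequences were not compared here, and how any reads that fit both were split cannot be told, so these ratios are uncertain.

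RPL22L1, the paralog of the RNA-binding 60S protein RPL22, rose most with both compounds. It was at 29.7 and 29.9 CPM with DMSO, 39.5 and 41.3 with CCF642, and 41.7 and 42.2 with CCF642-34, all 4 treated libraries lying above DMSO. The log2 fold change was 0.57 ± 0.08 with CCF642-34 (adjusted p = 1.2e-08) and 0.56 ± 0.08 with CCF642 (adjusted p = 1.4e-08), and the difference of 0.010 between the compounds had a 95% interval from -0.14 to 0.16. RPL22 itself was at 411 and 414 CPM with DMSO, 372 and 313 with CCF642, and 414 and 391 with CCF642-34. It fell by 0.14 ± 0.05 with CCF642 (adjusted p = 0.0091) and did not pass the test with CCF642-34, and it was higher with CCF642-34 than with CCF642 by 0.19 ± 0.05, a call lost without CCF642 replicate 2 or CCF642-34 replicate 1. The fall with CCF642 was not called without DMSO replicate 2, without CCF642 replicate 2 or with the correction for length and GC content. In deposited CPM, RPL22L1 was at 7.22% and 7.21% of that of RPL22 with DMSO, 10.6% and 13.2% with CCF642, and 10.1% and 10.8% with CCF642-34.

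The other 4 paralogs did not rise. RPL26L1, the paralog of RPL26, was at 24.6 and 25.6 CPM with DMSO, 18.8 and 18.99 with CCF642, and 23.9 and 26.3 with CCF642-34. It fell by 0.26 ± 0.09 with CCF642 (adjusted p = 0.013) and was higher with CCF642-34 than with CCF642 by 0.35 ± 0.09 (adjusted p = 0.0029), while RPL26 rose with CCF642-34 by 0.32 ± 0.04. Both RPL26L1 calls were lost with the correction for length and GC content, the one against DMSO also with cyclic loess or without DMSO replicate 2, and the other also without CCF642-34 replicate 2.

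RPL7L1, a paralog of RPL7 that acts in the nucleolus in 60S assembly, was at 81.9 and 82.4 CPM with DMSO, 64.1 and 65.2 with CCF642, and 70.0 and 68.0 with CCF642-34. It was lower in every treated library, by 0.21 ± 0.06 with CCF642 (a log2 fold change of -0.21, adjusted p = 0.0022) and by 0.16 ± 0.06 with CCF642-34 (-0.16, adjusted p = 0.019), the latter not called without DMSO replicate 1, DMSO replicate 2 or CCF642-34 replicate 2. RPL7 was at 944 and 953 CPM with DMSO and 954 and 957 with CCF642-34, a log2 fold change of 0.10 ± 0.04 that turned to -0.0068 with cyclic loess. RPL39L, which takes the place of RPL39 in some tissues, lay between 15.6 and 19.3 CPM, and RPS27L, a p53 target, between 28.2 and 36.8 CPM, and neither passed the test in any comparison. RPS27, the counterpart of RPS27L, rose by 0.33 ± 0.04 with CCF642-34.

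**Figure D5:**
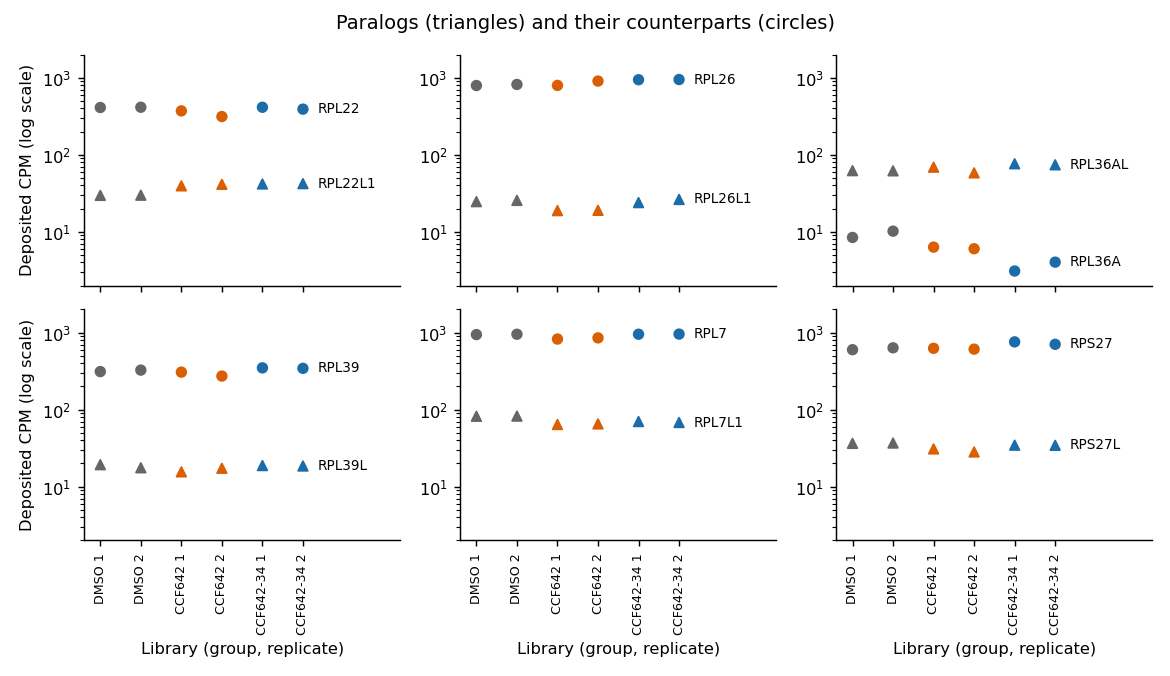
Deposited CPM (log scale) of 6 paralogs (triangles) and their standard counterparts (circles) in each of the 6 libraries, coloured by group. RPL22L1 is higher in all 4 treated libraries than with DMSO, RPL36A falls below RPL36AL in every library and is lowest with CCF642-34, and the other paralogs stay under their counterparts.

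FAU, which encodes a ribosomal protein as a fusion with a ubiquitin-like protein, falls outside the symbol rule. With CCF642-34 it rose by 0.28 ± 0.04. FAU was at 428 and 447 CPM with DMSO, 428 and 390 with CCF642, and 509 and 488 with CCF642-34, so only the CCF642-34 libraries stood above DMSO.

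A further 17 listed genes share the TOP start with the ribosomal proteins (elongation factors, subunits of initiation factor 3 and others). With CCF642-34, 13 rose (76.5%, against 29.7% of all genes) and 1 fell (5.88%, against 27.9%), with a median of 0.20. With CCF642, 10 rose (58.8%, against 31.8%) and 0 fell (against 31.3%), with a median of 0.14. The largest rise was that of EEF2, which moves the ribosome along the mRNA, from 4662 and 4823 CPM with DMSO to 5687 and 6003 with CCF642 and 6100 and 5992 with CCF642-34, or 0.44 ± 0.03 with either compound. HNRNPA1, a splicing regulator, fell by 0.29 ± 0.09 with CCF642-34 from a low 29.8 and 31.8 CPM, a call lost without DMSO replicate 2.

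The mitochondrial ribosome is built from separate nuclear genes, of which 75 were listed. With CCF642-34, 20 rose (26.7%, against 29.7% of all genes) and 15 fell (20%, against 27.9%), with a median of 0.027. With CCF642, 14 rose (18.7%, against 31.8% of all genes) and 33 fell (44%, against 31.3%), with a median of -0.12. Between the compounds 28 were higher (37.3%, against 15.9% of all genes) and 1 was lower (1.33%, against 17.5%) with CCF642-34. The median was 0.15, the same direction as in the cytosolic genes. The difference between the cytosolic and mitochondrial genes was not tested. Of 47 initiation factor genes, 20 rose (42.6%, against 29.7% of all genes) and 12 fell (25.5%, against 27.9%) with CCF642-34. With CCF642, 21 rose (44.7%, against 31.8%) and 10 fell (21.3%, against 31.3%). Between the compounds 3 were higher (6.38%, against 15.9%) and 8 were lower (17.02%, against 17.5%) with CCF642-34.

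Among 13 genes that act on ribosomal protein mRNAs or their transcription, 1 rose (7.69%, against 29.7% of all genes) and 3 fell (23.1%, against 27.9%) with CCF642-34. With CCF642, 5 rose (38.5%, against 31.8%) and 3 fell (23.1%, against 31.3%). MYC, a transcription factor that drives ribosomal protein genes in many cells, was at 452 and 465 CPM with DMSO, 99.4 and 103 with CCF642, and 181 and 181 with CCF642-34. Its libraries separated fully by group. It changed by -1.25 ± 0.04 on the log2 scale with CCF642-34 and by -2.04 ± 0.04 with CCF642, and was higher with CCF642-34 than with CCF642 by 0.79 ± 0.04. EIF4EBP1, a repressor of cap-dependent initiation that mTOR inactivates, rose by 1.34 ± 0.06 and 1.13 ± 0.06 with CCF642-34 and CCF642. EIF4EBP2, of the same family, was at 192 and 184 CPM with DMSO, 109 and 117 with CCF642, and 129 and 124 with CCF642-34, and fell by 0.48 ± 0.05 with CCF642-34 and by 0.60 ± 0.05 with CCF642. LARP1 was at 483 and 464 CPM with DMSO, 382 and 389 with CCF642, and 420 and 411 with CCF642-34, log2 fold changes of -0.16 ± 0.04 with CCF642 and -0.10 ± 0.04 with CCF642-34, the latter not called without DMSO replicate 1, DMSO replicate 2 or CCF642-34 replicate 2, or with the length and GC correction.

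Dedicated chaperones carry new ribosomal proteins to the nucleolus. Of 5 listed, 3 fell (60%, against 27.9% of all genes) and 0 rose (against 29.7%) with CCF642-34. With CCF642, 3 fell (60%, against 31.3%) and 1 rose (20%, against 31.8%). HEATR3, which imports RPL5, was at 43.4 and 41.3 CPM with DMSO, 24.2 and 22.8 with CCF642, and 26.2 and 25.6 with CCF642-34. All treated libraries lay below DMSO, and HEATR3 fell by 0.60 ± 0.08 with CCF642-34 and by 0.69 ± 0.08 with CCF642.

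The 19 listed genes of ribosome surveillance act on stalled ribosomes or on unassembled ribosomal proteins. With CCF642-34, 9 rose (47.4%, against 29.7% of all genes) and 4 fell (21.1%, against 27.9%). With CCF642, 10 rose (52.6%, against 31.8%) and 3 fell (15.8%, against 31.3%). The largest rise with either compound was that of RNF25, a ligase that marks stalled ribosomes, at 0.65 ± 0.08 with CCF642-34 and 0.71 ± 0.08 with CCF642. The largest falls were those of OTUD3, a deubiquitylase of the 40S subunit, by 0.37 ± 0.12 with CCF642-34, and of USP21, another such enzyme, by 0.32 ± 0.08 with CCF642. The OTUD3 call was lost without DMSO replicate 1 or CCF642-34 replicate 2. MDM2, which RPL5 and RPL11 bind, was at 509 and 523 CPM with DMSO, 692 and 733 with CCF642, and 579 and 612 with CCF642-34, and rose by 0.60 ± 0.04 with CCF642 and 0.30 ± 0.04 with CCF642-34.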

How the data were processed

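RNA of MM1.S cells was sequenced in 6 libraries, 2 per group. The authors deposited CPM values, reads per gene scaled to the library total, for 11048 gene symbols. The submitters' processing notes name STAR, edgeR 3.24.3, limma 3.38.3 and hg19, and the counter, the annotation and the low-value filter are not given in the sources used here. The unit was read from the values: 100% were whole multiples (within 0.05 read) of a single read's share, with the step taken from differences between values, since the smallest value stood for 5 and 3 reads in the CCF642-34 libraries. Listed genes held 99.9% of reads. The table of the whole series was not used.

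CPM were scaled with TMM factors (edgeR 4.0.16), a pseudocount of 1 was added, and log2 values were fitted in all 3 groups together with limma 3.58.1 (R 4.3.3; trended eBayes; 3 residual and 42.9 prior degrees of freedom) without a replicate block. TMM factors were 1.05 and 1.05 with DMSO, 0.962 and 0.957 with CCF642, and 0.987 and 0.992 with CCF642-34. Fold changes on this scale understate those of low genes. Adjusted p-values (two-sided, Benjamini-Hochberg over all genes, threshold 0.05) cover 3 comparisons. The fit was also run on simulated counts, drawn independently for each gene with a common spread. These hold no shift shared by the genes of a library, so that run does not bear on the calls given here. Gene lengths came from GENCODE 29 on GRCh38, which held all 81 genes and 11018 of 11048, and the starts from RefSeq. The TOP match was searched on the strand of the gene only. No coordinates were taken from the deposited files.

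The members and gene lists were chosen with earlier results of these data known. Named genes are the 5 largest increases and decreases per comparison, paralogs and counterparts, members with known roles, the 3 highest and lowest per length, and the extremes of each list. RPL10A, RPL13A and other genes are given only within counts. RPL5, RPL23, RPS7, RPS25 and RPL6 with CCF642, and MDM2, LARP1, EIF4EBP2, SDC1, IRF4, COL1A1 and FAU, and the pseudogene RPL23AP82 with its parent RPL23A, were added after their values were seen. RACK1, GAS5 and MAP3K20 were not analysed here. Alternatives were library size alone, DESeq2 1.42.0 size factors, cyclic loess, edgeR's quasi-likelihood test on the recovered reads, other pseudocounts (0.1 and 4), leaving out genes whose mean CPM was below 5, a length and GC correction, separate fits per pair of groups, a block for the replicate number, omission of each library (the remaining library is assumed to vary like the others), and the longest transcript. The principal transcript was added after the data were seen. Reads are not independent molecules and depth limits low genes by counting error. Values of some single genes are not reported here, although these genes are within the counts.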

Additional observations from a re-analysis of the deposited data

How the results depend on the processing

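Of the values that answer a comparison, those that moved or turned are given first. With library size alone, 6 ribosomal protein genes fell with CCF642-34 (median 0.12), and 12 rose and 30 fell with CCF642 (median -0.047). In that scaling 61 were higher and 1 lower between the compounds (median 0.16). With cyclic loess, 5 fell with CCF642-34 (median 0.12), and 15 rose and 18 fell with CCF642 (median -0.022). With the length and GC correction, 5 fell with CCF642-34, 4 fell with CCF642, and 22 were higher and 8 lower between the compounds (median 0.036). As TMM-scaled CPM, the difference in summed share was 0.91 percentage points for CCF642-34 against DMSO, 0.45 for CCF642 against DMSO and 0.46 between the compounds, in place of 0.56, -0.075 and 0.63. Beyond the changed scaling or covariates themselves, the cause was not tested. When each library was left out in turn, the number of genes higher with CCF642 lay between 22 and 46 and the number lower between 2 and 12, and between the compounds the number higher lay between 21 and 51 and the number lower between 1 and 5. With CCF642-34 against DMSO the number higher lay between 57 and 68.

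Among 84 single-gene values, those that changed sign were RPL7 with CCF642-34 (-0.0068, cyclic loess), RPL28 between the compounds (-0.0012 with DESeq2 size factors, and between -0.091 and 0.10 without single libraries), RPL22L1 between the compounds (-0.012 with cyclic loess, -0.054 with the length and GC correction, and between -0.025 and 0.046 without single libraries) and RPL5 between the compounds (-0.015, length and GC correction). Without single libraries, RPS21 lay between -0.022 and 0.30 with CCF642-34 and RPS25 between -0.25 and 0.013 with CCF642. Of 82 values past the threshold, 58 kept their call under every alternative run on them, at most 16. Calls were lost for 9 values with library size alone, 12 with cyclic loess and 13 with the length and GC correction, and for 8 to 12 without one of 5 libraries.

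Replicate numbers were shared by the labels, but same-numbered libraries did not deviate together (correlations of -0.0089, -0.056 and 0.047 over all genes, and of 0.087, -0.056 and 0.16 over the ribosomal protein genes). With the replicate block, 67 genes rose and 3 fell with CCF642-34, 38 and 9 with CCF642, and 50 and 1 between the compounds. RPS18 and RPL17 rest on 24 to 63 reads per library, and with CCF642-34 their 95% intervals were wide, from -0.92 to -0.027 and from -0.68 to 0.10.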

Other observations

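The pseudogenes that the symbol rule left out were also read. RPL23AP82 was at 3.91 and 4.30 CPM with DMSO, 1.46 and 1.24 with CCF642, and 3.79 and 3.42 with CCF642-34, and the CCF642 libraries lay below the other 4. The log2 fold change was -1.03 ± 0.19 (SE) with CCF642 (limma adjusted p = 4.6e-06), and CCF642-34 was higher than CCF642 by 0.95 ± 0.19 (adjusted p = 6.8e-05). Its parent RPL23A was at 815 and 814 CPM with DMSO, 756 and 735 with CCF642, and 803 and 848 with CCF642-34. How reads that fit both were assigned was not tested.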
